A study of Mus musculus with 8 samples.

Results

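Interferon-stimulated genes are the genes that cells switch on when interferon binds its receptor, and 37 of them were followed here in mouse brown adipose tissue with and without adenylyl cyclase 3 in adipocytes. The 37 were taken by symbol from a list covering transcription factors, sensors of foreign nucleic acid, antiviral effectors and inducible GTPases. This list and the further gene lists below were chosen with earlier results of these data known. Their comparisons with all tested genes are therefore descriptions and not independent tests. All 37 were found among the 54385 Ensembl gene rows of the deposited table, and 36 passed the filter on low counts. The samples are 8 libraries of polyadenylated RNA from C57BL/6N mice aged 20 weeks and fed chow. The 4 control libraries (WT) come from mice with floxed Adcy3 alleles. The 4 knockout libraries (cKO) come from mice with the same floxed alleles and the Adipoq-Cre transgene, in which the adiponectin promoter drives Cre in adipocytes, so other cells of the tissue keep the gene. The genotype entry of WT replicate 4 also lists the Cre although its title calls it WT. It was kept as WT, and results that change without it are given. The sample labels call the tissue interscapular and the series' design text calls it inguinal. The summed level of 10 brown adipocyte markers, among them Ucp1 and Cidea, was 9959 to 14017 CPM over the 8 libraries, CPM being counts per 1000000 counts of the library. The largest part was Fabp4, at 5876 ± 463 CPM in WT and 5783 ± 1004 in cKO (SD, n = 4 each). Ucp1 had 2571 ± 324 and 3167 ± 1025 CPM. Fabp4 and others of the 10 are not specific to brown fat, so the sum does not settle which name is right. The labels do not say that each library is a separate animal, so the spread behind each p-value may be technical.

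Type I interferons signal through the receptor Ifnar1-Ifnar2 and the kinases Jak1 and Tyk2, which activate Stat2 among other factors. With Irf9 these form a complex that binds the interferon-stimulated response element (ISRE) in the promoters of target genes. Interferon gamma signals through Ifngr1-Ifngr2, Jak1 and Jak2, and its target promoters hold the gamma-activated site (GAS). Many of the products block viral translation, degrade viral RNA or attack vacuoles that hold pathogens, and a low tonic level of these transcripts is known from tissues without infection.

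Loss of Adcy3 in adipocytes was not accompanied by a detectable change in any of the 36 tested genes. By edgeR's quasi-likelihood test 0 of 36 were called at a Benjamini-Hochberg adjusted p of 0.05, against 0.0687% of all 14553 tested genes (0.0206% lower and 0.0481% higher in cKO), and the smallest edgeR adjusted p was 0.882. DESeq2 called 0 of 36 against 0.316% of all genes, with 3 at an unadjusted DESeq2 p under 0.05 and lower in cKO, against 3.32% of all genes. By limma-voom 0 were called against 0.0687%, with 4 at an unadjusted p under 0.05 and lower in cKO, also against 3.32%. Most of the genes had slightly lower values in cKO. The log2 fold change of cKO over WT was negative for 32 of 36, against 48.2% of all tested genes, with a median of -0.21 against 0.01 for all tested genes. The larger differences lay between libraries of the same group. WT replicates 1 and 3 and cKO replicate 3 had high values of most of these genes, and WT replicate 4, cKO replicate 2 and cKO replicate 4 had low ones.

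In bulk tissue, fewer cells of a type and less RNA per cell cannot be told apart. Adcy3 itself stood at 112, 118, 61.7 and 118 CPM in WT replicates 1 to 4 and 17.95 to 25.3 CPM in cKO without overlap (edgeR adjusted p = 0.000925). WT replicate 3 thus lay well below the other WT libraries for the deleted gene. WT replicate 4, whose genotype entry lists the Cre, had an Adcy3 level like that of WT replicates 1 and 2. Total estimated counts ran from 10713043 to 32437214 per library. The 36 tested genes collected between 147 (Mx2) and 104994 (Ifi27) counts over the 8 libraries, so the low ones carry large counting error.

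Levels were compared between genes as mean CPM per kb (1000 bases) of exon. Ifi27, an interferon-induced membrane protein, stood apart at 522 CPM per kb, 23.97 times the next gene, Bst2 (21.8). Bst2 encodes tetherin, which holds budding virus particles at the cell surface. Gbp2 (9.02), Ifi35 (8.05), Irf1 (6.95) and Trim25 (6.52) followed, and 28 of the 36 lay between 1 and 10 CPM per kb. The median was 2.60. The 6 genes under 1 CPM per kb were Oas1a (0.847), Oasl2 (0.820), Oasl1 (0.479), Ifi44 (0.404), Zbp1 (0.328) and Mx2 (0.287). From Gbp2 downward each gene overlaps its neighbour in this order over the libraries, whereas Ifi27, Bst2 and Gbp2 do not overlap. Ifi27 made up 64.8% ± 3.54 of the summed CPM of the 37 genes in WT and 63.7% ± 3.33 in cKO (SD, n = 4 each), so a sum over all 37 mostly measures Ifi27.

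**Figure D1:**
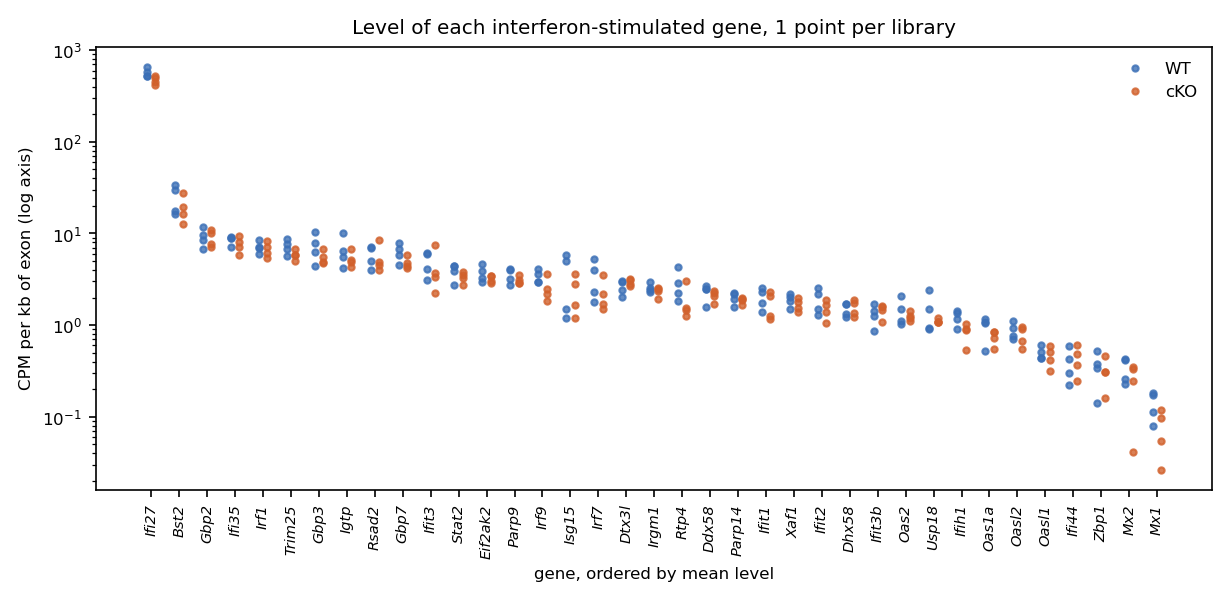
Level of each of the 37 genes in CPM per kb of exon on a log axis, with 1 point per library, WT in blue and cKO in orange. Ifi27 lies near 522 and Bst2 near 21.8, and for all genes but Ifi27 the WT and cKO points overlap.

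Mx1 did not pass the filter. It encodes a dynamin-like GTPase that blocks influenza virus, and the allele of most laboratory strains carries a deletion. It had 21, 6, 14 and 4 counts in WT replicates 1 to 4 and 3, 1, 7 and 5 in cKO replicates 1 to 4, so it was detected in every library at under 1 CPM. Its relative Mx2, annotated as a polymorphic pseudogene, had 1.52, 1.5, 0.944 and 0.830 CPM in WT and 0.881, 1.198, 1.27 and 0.148 CPM in cKO. The low value of cKO replicate 4 gave it the widest range of the 36 genes. That value was 2 counts, against 13, 12 and 20 in cKO replicates 1 to 3, so the range carries large counting error.

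Among the transcription factors, Irf7, the amplifier of the type I interferon response (chr7:141262706-141266481, minus strand), varied most. It stood at 19.8, 8.64, 15.2 and 6.79 CPM in WT replicates 1 to 4 and at 8.27, 6.49, 13.5 and 5.72 CPM in cKO replicates 1 to 4. WT replicates 1 and 3 and cKO replicate 3 were therefore high, the rest lay at or below 8.64 CPM, and the groups overlapped. Its log2 fold change was -0.58 ± 0.40 (SE), with a 95% interval of -1.48 to 0.33 (edgeR adjusted p = 0.901). Irf1, an early regulator induced mainly by interferon gamma, was steadier, with 27.8, 28.6, 33.6 and 23.9 CPM in WT and 24.1, 21.3, 33.1 and 28.6 CPM in cKO. Its log2 fold change was -0.09 ± 0.15 (SE). Irf9 and Stat2, the other parts of the complex that binds the ISRE, ranged from 9.96 to 22.2 CPM and from 16.2 to 26.3 CPM over the 8 libraries. All 4 factors had negative log2 fold changes, against 48.2% of all tested genes. At an unadjusted edgeR p under 0.05 there were 0 of 4, against 5.60%.

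The sensors of viral nucleic acid include Ifih1 and Ddx58, which detect double-stranded RNA, their regulator Dhx58, the Z-form nucleic acid sensor Zbp1 and the kinase Eif2ak2, which halts translation. Ifih1 (chr2:62595798-62646255, minus strand) had 11.1, 11.5, 9.49 and 7.32 CPM in WT and 7.45, 4.39, 7.17 and 8.31 CPM in cKO. The 3 highest libraries were WT, while WT replicate 4 lay among the cKO libraries. The log2 fold change was -0.52 ± 0.21 (SE), with an interval of -0.98 to -0.06 and an unadjusted edgeR p of 0.0286 that did not survive adjustment (edgeR adjusted p = 0.882). Eif2ak2, the most abundant of the 5, had 23.6, 20.1, 16.8 and 15.02 CPM in WT and 17.5, 15.4, 17.7 and 14.6 CPM in cKO, with overlap. Dhx58 had a log2 fold change of 0.06 ± 0.21 (SE). Ddx58 ranged from 11.2 to 18.6 CPM and Zbp1 from 0.5001 to 1.83 CPM.

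Isg15 is a ubiquitin-like protein, Usp18 removes it from its targets and restrains receptor signalling, and Trim25 is a ubiquitin ligase that activates Ddx58. Isg15 (chr4:156199424-156200818, minus strand) had 4.35, 1.14, 3.82 and 0.906 CPM in WT and 2.10, 0.899, 2.73 and 1.26 CPM in cKO. WT replicates 1 and 3 thus held more than 3 times the level of WT replicates 2 and 4, and the lowest WT and cKO libraries were nearly equal. The log2 fold change was -0.56 ± 0.53 (SE), with a 95% interval of -1.74 to 0.62. Trim25, the most abundant of the 3, had 43.8, 39.1, 50.5 and 32.3 CPM in WT and 38.8, 33.4, 33.3 and 28.9 CPM in cKO, a log2 fold change of -0.30 ± 0.14 (SE) with an edgeR adjusted p of 0.886. Usp18 had 6.69 CPM in WT replicate 1 and 2.50 to 4.17 CPM in the other 7 libraries.

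The Ifit proteins bind foreign RNA ends and block their translation, and their genes lie side by side on chromosome 19. Ifit3 (chr19:34583531-34588731, plus strand) and Ifit3b (chr19:34607970-34613401, plus strand) are near-identical. Of the 31-base sequences of Ifit3 transcripts 61.8% occur in Ifit3b, so the estimated counts cannot place all reads with certainty. Ifit3 had 10.8, 7.14, 10.4 and 5.44 CPM in WT and 5.83, 3.89, 13.01 and 6.53 CPM in cKO, and Ifit3b had 3.39, 1.71, 2.83 and 2.49 CPM in WT and 2.91, 3.20, 3.17 and 2.15 CPM in cKO. Their sum avoids that division. It was 14.2, 8.86, 13.3 and 7.93 CPM in WT and 8.74, 7.09, 16.2 and 8.68 CPM in cKO, with WT replicates 1 and 3 and cKO replicate 3 again high. Ifit2 had 9.86, 5.07, 8.54 and 5.89 CPM in WT and 6.57, 4.09, 7.43 and 5.42 CPM in cKO (log2 fold change -0.32 ± 0.25 (SE)). Ifit1 ranged from 3.10 to 6.78 CPM.

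The Oas enzymes make the short adenylate chains that activate RNase L, and the Oasl proteins are their relatives. Oas2 had 9.30, 4.93, 6.61 and 4.53 CPM in WT and 4.95, 5.29, 6.41 and 5.64 CPM in cKO. WT replicate 1 was the highest library and the other 7 overlapped. Oas1a had 2.18, 2.00, 2.04 and 0.981 CPM in WT and 1.36, 1.60, 1.59 and 1.04 CPM in cKO (log2 fold change -0.38 ± 0.33 (SE)), and it shares 68.7% of its 31-base sequences with Oas1g, so its count is uncertain. Oasl1 and Oasl2 ranged from 0.816 to 1.57 CPM and from 3.495 to 7.06 CPM. All 4 had negative log2 fold changes, against 48.2% of all tested genes, and for 0 of 4 was the unadjusted edgeR p under 0.05, against 5.60%.

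Rsad2 encodes viperin, an enzyme that makes a chain-terminating nucleotide. It had 30.98, 21.8, 30.0 and 17.4 CPM in WT and 17.4, 19.9, 36.9 and 21.3 CPM in cKO, and the highest library was cKO replicate 3. Its log2 fold change of -0.07 ± 0.27 (SE) was near 0 and turned positive without any 1 of 4 libraries. Bst2 ranged from 11.5 CPM in cKO replicate 2 to 30.5 CPM in WT replicate 1.

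The guanylate-binding proteins Gbp2, Gbp3 and Gbp7 and the immunity-related GTPases Igtp and Irgm1 act on vacuoles that hold pathogens and respond strongly to interferon gamma. Gbp7 (chr3:142530342-142550149, plus strand) had 43.9, 32.4, 37.7 and 25.6 CPM in WT and 23.3, 26.7, 32.9 and 24.6 CPM in cKO. The 2 highest libraries were WT replicates 1 and 3. The log2 fold change was -0.38 ± 0.17 (SE), with an interval of -0.74 to -0.02 and an unadjusted edgeR p of 0.0415 (edgeR adjusted p = 0.884). Gbp3 had 33.9, 20.4, 25.8 and 14.3 CPM in WT and 15.5, 15.9, 22.0 and 18.1 CPM in cKO (log2 fold change -0.41 ± 0.24 (SE)), so WT replicate 4 was the lowest of all 8 libraries. Gbp2, Igtp and Irgm1 ranged from 17.1 to 29.7, from 8.53 to 20.7 and from 11.1 to 17.2 CPM. All 5 GTPases had negative log2 fold changes, against 48.2% of all tested genes.

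Parp9 and Dtx3l form a complex that modifies histones, and Parp14 is a mono-ADP-ribosyltransferase. Parp9 had 20.2, 19.4, 15.7 and 13.4 CPM in WT and 17.1, 13.9, 14.2 and 15.1 CPM in cKO. Dtx3l, whose gene overlaps Parp9 on the opposite strand, had 13.8, 16.8, 17.1 and 11.6 CPM in WT and 18.3, 16.1, 15.2 and 17.6 CPM in cKO. Its log2 fold change was 0.18 ± 0.15 (SE). The strand setting of the counting is not given in the sources used here, so reads of the overlap may not have been told apart. Parp14 had 20.9, 18.0, 20.6 and 14.5 CPM in WT and 15.4, 17.7, 17.9 and 18.3 CPM in cKO. Other genes here also share sequence or position with neighbours. Irf7 and Rtp4 overlap Phrf1 and Masp1 on the opposite strand, Igtp shares 15.9% of its 31-base sequences with Irgm2, and Gbp7 shares 10.8% with the pseudogene Gm43802.

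Of the remaining genes, Ifi27 (chr12:103434211-103440239, plus strand) had 857, 769.6, 959 and 772 CPM in WT and 617, 761, 731 and 659.8 CPM in cKO. Every cKO library lay below every WT library, the closest pair being WT replicate 2 and cKO replicate 2. It was 1 of 36 genes with groups that did not overlap in this direction, against 2.27% of all tested genes (3.50% in either direction). Its log2 fold change was -0.28 ± 0.12 (SE), with an interval of -0.54 to -0.02 and an unadjusted edgeR p of 0.0370 (edgeR adjusted p = 0.882). Rtp4, a receptor chaperone that also restrains interferon responses, had 9.08, 4.79, 6.16 and 3.93 CPM in WT and 3.25, 2.70, 6.47 and 3.12 CPM in cKO. Its log2 fold change was -0.63 ± 0.33 (SE), with an interval of -1.34 to 0.08 and cKO replicate 3 well inside the WT range. Ifi44 had 3.61, 1.86, 2.58 and 1.36 CPM in WT and 2.24, 1.498, 3.68 and 2.97 CPM in cKO (log2 fold change 0.13 ± 0.36 (SE)). Ifi35 and the apoptosis factor Xaf1 ranged from 9.96 to 16.1 CPM and from 6.53 to 10.3 CPM.

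**Figure D2:**
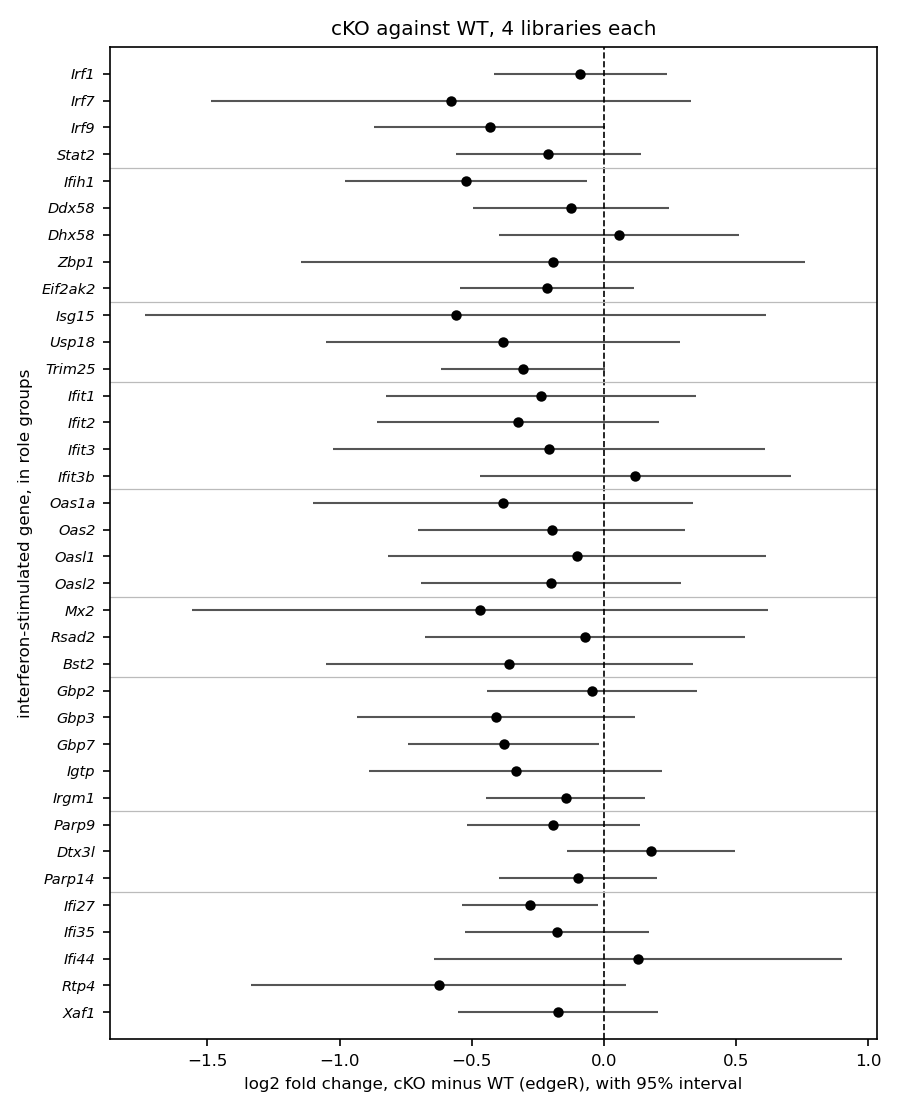
Log2 fold change of cKO over WT for the 36 tested genes, grouped by role, with points for the edgeR estimate and lines for its 95% interval. Of the 36 points 32 lie left of 0, and the intervals of 3 (Ifih1, Gbp7 and Ifi27) exclude 0.

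Across the 36 genes, 3 (Ifih1, Gbp7 and Ifi27) had an unadjusted edgeR p under 0.05 with lower values in cKO, against 3.45% of all tested genes, and 0 had one with higher values, against 2.15%. In either direction the 3 of 36 stand against 5.60% of all tested genes. The upper end of the 95% interval was below 1 for all 36, so each interval excludes a doubling in cKO on the log2 scale. A fall of 1 log2 unit was outside the interval for 27. The size of the shared shift rests on single libraries. Without WT replicate 1 the median log2 fold change was -0.10, 28 of 36 were negative and 0 were lower at an unadjusted edgeR p under 0.05, against 3.76% of all genes in that fit. Without WT replicate 4 it was -0.31, with 34 negative and 8 lower at that threshold, against 3.16% of all genes. Moving that library to cKO follows its genotype entry but goes against its Adcy3 level of 118 CPM. The median was then -0.35, with 35 negative and 14 lower, against 3.25%. Without cKO replicate 3, 7 were lower, against 4.12%. Single genes moved in the same way. Without WT replicate 1 the log2 fold change was -0.17 for Isg15, -0.27 for Irf7, -0.35 for Rtp4, -0.18 for Gbp3, -0.14 for Ifit2, -0.25 for Gbp7 and -0.087 for Eif2ak2. Without cKO replicate 3 it was -0.86 for Isg15, -0.90 for Irf7, -0.99 for Rtp4, -0.64 for Ifit3 and -0.73 for Mx2, and without cKO replicate 4 it was -0.12 for Mx2. Trim25 was at -0.19 without WT replicate 3. In all of these fits 0 of 36 were called after adjustment.

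The genes varied together from library to library. An interferon score was taken as the mean over the 36 genes of log2 CPM minus the gene's mean over the 8 libraries. It was 0.47, -0.03, 0.27 and -0.28 in WT replicates 1 to 4 and -0.11, -0.27, 0.18 and -0.23 in cKO replicates 1 to 4. The difference between the groups (-0.22) was smaller than the spread within WT (0.11 ± 0.33, SD, n = 4) and close to that within cKO (-0.11 ± 0.20, SD, n = 4), and the groups overlapped. WT replicate 1 held the highest value of 22 of the 36 genes, and WT replicate 3 and cKO replicate 3 those of 6 and 5. The lowest value was in WT replicate 4 for 12 genes, in cKO replicate 2 for 10 and in cKO replicate 4 for 7. The ratio of the highest to the lowest library had a median of 2.04 and exceeded 2 for 19 genes, and the median SD of log2 CPM within groups was 0.33, against 0.25 over all tested genes.

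**Figure D3:**
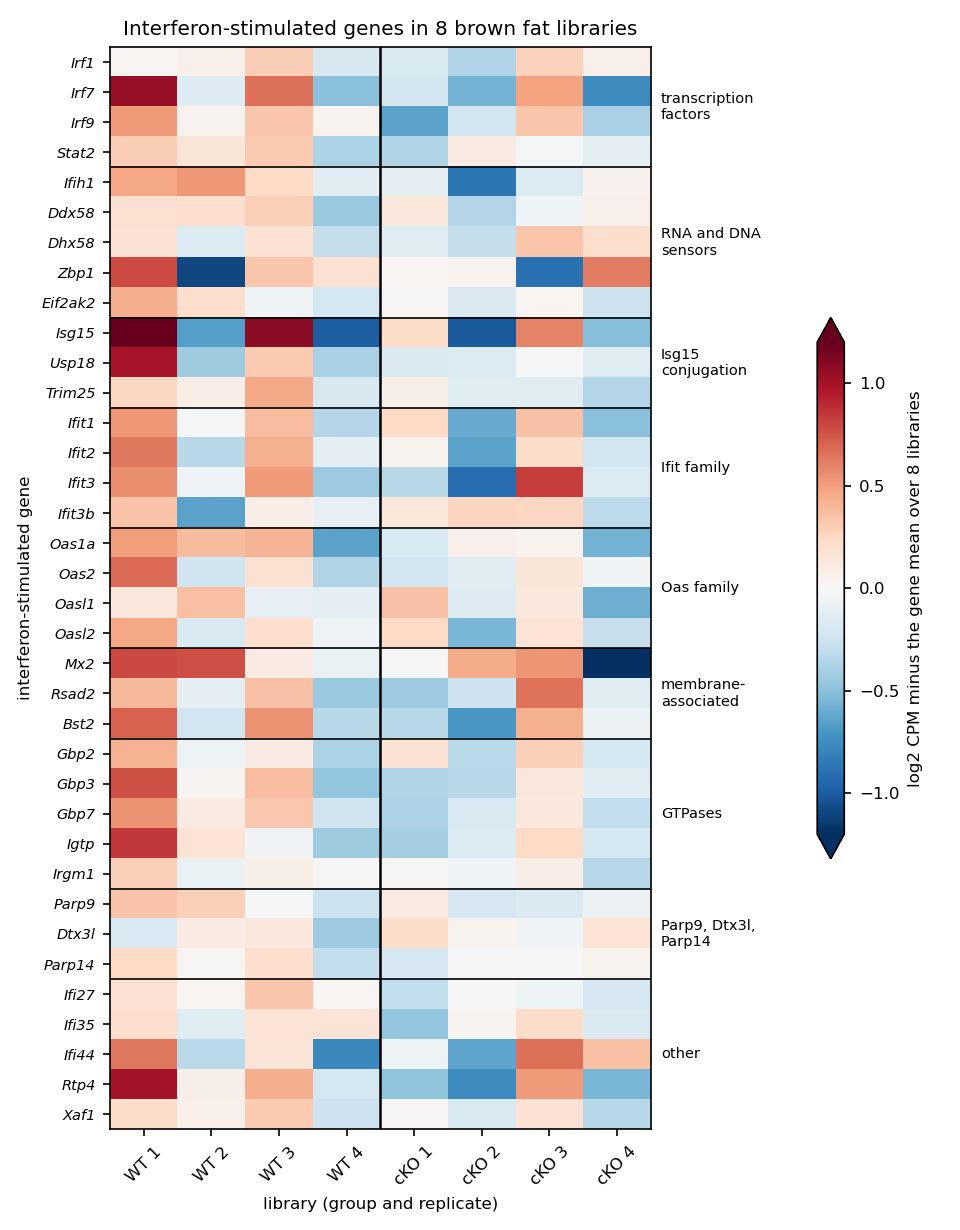
Heat map of the 36 tested genes (rows, in role groups) in the 8 libraries (columns), coloured by log2 CPM minus the gene's mean over the libraries, with colours saturating at both ends of the scale. The columns of WT replicate 1, WT replicate 3 and cKO replicate 3 are mostly red, and those of WT replicate 4, cKO replicate 2 and cKO replicate 4 mostly blue.

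As a description over 8 libraries, Pearson's r of log2 CPM was taken for each pair of genes after subtracting the group means. All genes of a library share its tissue composition and depth, and both differ between the libraries. The median over the 630 pairs was 0.54, and 91.7% of pairs were positive. Over all 105887628 pairs of tested genes the median was -0.00153 and 49.9% were positive. Within lists of cell type markers the same median was 0.61 for macrophages, 0.69 for endothelial cells and 0.99 for skeletal muscle. It was 0.16 for brown adipocytes (10 genes), 0.14 for dendritic cells (4 genes) and 0.04 for B cells (3 genes). The last 2 rest partly on genes with 92 to 104 counts in all (Cd209a, Cd79a and Ms4a1), so counting error weighs on them. By the high medians of the first 3 lists, strong covariation was not particular to the interferon-stimulated genes. By role, the median was 0.75 for Isg15, Usp18 and Trim25, 0.74 for the GTPases, 0.72 for the Ifit family, 0.57 for the transcription factors, 0.45 for the Oas family and 0.29 for Mx2, Rsad2 and Bst2. The correlation of each gene with the mean of the other 35 was above 0.8 for 15 genes, led by Irf7 (0.98), and also high for Rtp4, Gbp3, Isg15 (0.94 each) and Gbp2 (0.93). It was below 0.3 for 4, namely Zbp1 (0.02), Dtx3l (0.19), Oasl1 (0.25) and Mx2 (0.29), of which Zbp1, Oasl1 and Mx2 are among the 6 least abundant. Ifi27, the most abundant, had 0.48.

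**Figure D4:**
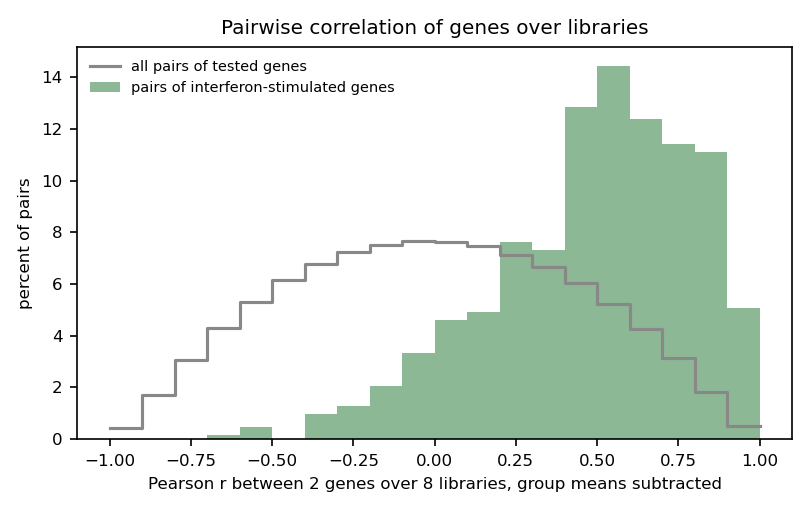
Share of gene pairs, in percent, by Pearson's r over the 8 libraries with group means subtracted, with bars for the 630 pairs of interferon-stimulated genes and a line for all pairs of tested genes. The bars centre near 0.54 and the line near 0.

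The promoters of these genes are shown as a description. The genes were listed as interferon-stimulated, so the share with an ISRE reflects that choice and is no test of why they vary together. RefSeq promoters (GRCm38.p6, 250 bases before to 50 after the start) were at hand for 27 of the 37. The core of the ISRE, GAAA, any 2 bases and GAAA on either strand, was found in 16 of the 27 (59.3%), against 3.99% of 27025 genes with a promoter. The GAS motif TTCNNNGAA, which reads the same in its fixed letters on both strands, was found in 8 (29.6%), against 9.55%. Among the genes named by the rule, the 4 with an ISRE core and the highest correlation with the other members were Gbp3, Isg15, Gbp7 and Rsad2, and their promoters are given 5′ to 3′ on the strand of the gene, with ISRE cores of either strand in capitals. They lie at chr3:142559794-142560093 (plus strand, Gbp3), chr4:156200769-156201068 (minus, Isg15), chr3:142530086-142530385 (plus, Gbp7) and chr12:26456403-26456702 (minus, Rsad2).
Gbp3: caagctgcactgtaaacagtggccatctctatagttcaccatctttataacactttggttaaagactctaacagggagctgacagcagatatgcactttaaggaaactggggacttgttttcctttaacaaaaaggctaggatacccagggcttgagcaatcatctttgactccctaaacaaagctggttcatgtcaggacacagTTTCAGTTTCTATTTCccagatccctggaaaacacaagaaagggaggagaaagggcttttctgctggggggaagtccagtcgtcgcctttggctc
Isg15: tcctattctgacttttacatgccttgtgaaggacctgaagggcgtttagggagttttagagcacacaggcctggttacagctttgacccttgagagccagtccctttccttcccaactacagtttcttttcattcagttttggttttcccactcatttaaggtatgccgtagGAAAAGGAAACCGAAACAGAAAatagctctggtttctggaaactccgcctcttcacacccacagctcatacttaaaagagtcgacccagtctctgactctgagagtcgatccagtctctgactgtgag
Gbp7: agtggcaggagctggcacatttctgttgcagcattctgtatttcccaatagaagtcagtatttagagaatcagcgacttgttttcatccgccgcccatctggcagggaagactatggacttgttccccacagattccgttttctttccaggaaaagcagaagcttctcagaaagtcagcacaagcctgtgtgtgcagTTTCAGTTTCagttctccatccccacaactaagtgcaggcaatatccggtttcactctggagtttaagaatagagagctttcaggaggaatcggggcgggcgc
Rsad2: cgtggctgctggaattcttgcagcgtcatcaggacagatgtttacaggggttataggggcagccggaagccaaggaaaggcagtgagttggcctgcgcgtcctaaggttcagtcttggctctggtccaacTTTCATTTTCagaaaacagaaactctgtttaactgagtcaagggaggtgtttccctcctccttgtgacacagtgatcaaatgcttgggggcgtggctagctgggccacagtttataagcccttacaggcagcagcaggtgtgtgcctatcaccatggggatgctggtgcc

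In Isg15, 3 overlapping cores run from base -78 to base -57 counted from the start, in Gbp3 2 overlapping cores run from -45 to -30, and Gbp7 has 1 from -53 to -44. To compare the element between role groups, the core nearest the start of each gene is given on the motif strand with 5 bases on each side and the core in capitals.
Stat2: gaaagGAAACTGAAAccagg
Ifih1: gaatcGAAACAGAAAccgat
Ddx58: catagGAAATCGAAActgcc
Eif2ak2: gccggGAAAACGAAAcagaa
Ifit1: agtgaGAAACTGAAActgag
Ifit3: aagtaGAAACTGAAAcagac
Ifit3b: aagtaGAAACTGAAAcagac
Oas1a: aaatgGAAACTGAAAatcta
Bst2: aaaatGAAACTGAAAggctg
Gbp2: acagtGAAAGTGAAActaaa
Igtp: gaactGAAACTGAAAgctgt
Irgm1: aaataGAAACCGAAActgat

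Ifit3 and Ifit3b carry the same 20 bases here. Over all cores found, GAAACTGAAA occurs in Stat2, Ifit1, Ifit3, Ifit3b, Oas1a, Bst2, Gbp3, Gbp7 and Igtp. Of these, Ifit1, Ifit3 and Ifit3b also hold GAAAGTGAAA, Oas1a GAAATGGAAA, Bst2 GAAAATGAAA and Gbp3 GAAATAGAAA. The cores of Ifih1, Ddx58 and Eif2ak2 lie after the start, at 33 to 42, 3 to 12 and 19 to 28. The correlation with the other members had a median of 0.82 in the 16 genes with a core and 0.71 in the 11 with a promoter but no core, and the ranges overlapped (0.44 to 0.94 and 0.19 to 0.98). Irf7, which correlated best, had no core in its window. These matches describe letters in a window and not binding.

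Transcripts of the interferons themselves were almost absent. Over the 8 libraries and 133394346 counts, the 21 interferon genes looked up, among them Ifnb1, Ifng and 13 of the Ifna family, held 11 counts together. Of these 21, 13 had 0 counts in all libraries, which allows a level of up to 0.0225 CPM (3 counts of the total, counting error only), and the highest was Ifng with 3 counts. Of the 9 receptors and kinases, 8 passed the filter and 0 were called in either direction, against 0.0687% of all tested genes. Ifnlr1, the receptor chain for interferon lambda, failed the filter with 73 counts in all. Ifngr1 had 90.9 ± 7.25 CPM in WT and 90.1 ± 15.9 in cKO, Jak1 75.2 ± 13.4 and 83.1 ± 4.44, and Ifnar2 67.5 ± 6.41 and 66.5 ± 8.09 (SD, n = 4 each). Tyk2, with 19.7 ± 2.48 and 15.7 ± 1.51 CPM, was the 1 of 8 with an unadjusted edgeR p under 0.05 and lower values in cKO, against 3.45% of all tested genes, at -0.32 on the log2 scale and an edgeR adjusted p of 0.882. The median pairwise r of these 8 genes was 0.08.

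Of 10 tested signal transducers and regulators outside the list, 0 were called, against 0.0687% of all tested genes. At an unadjusted edgeR p under 0.05 there were 0, against 5.60%. Stat3 stood at 51.2 ± 6.38 CPM in WT and 48.5 ± 7.33 in cKO, and Irf3, which starts interferon transcription, at 37.7 ± 3.79 and 33.4 ± 4.26. Of 11 tested genes of nucleic acid sensing, 0 were called and 2, Mavs and Myd88, had an unadjusted edgeR p under 0.05 with higher values in cKO, against 2.15% of all tested genes. Mavs, the mitochondrial adaptor of Ifih1 and Ddx58, had 74.7 ± 13.1 CPM in WT and 94.1 ± 13.5 in cKO, 0.33 on the log2 scale at an edgeR adjusted p of 0.884. The next most abundant, Tbk1 and Unc93b1, had 23.3 ± 4.31 and 24.7 ± 1.07 CPM and 16.8 ± 2.60 and 17.5 ± 3.29 CPM. The median pairwise r was -0.03 for the transducers and -0.05 for the sensing genes.

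For 50 further tested interferon-induced genes outside the 37 the median log2 fold change was -0.18. Of these 36 were negative, against 48.2% of all tested genes, and 0 were called, against 0.0687%. At an unadjusted edgeR p under 0.05, 6 were lower in cKO, against 3.45% of all tested genes, and 1 was higher, against 2.15%. Their median pairwise r was 0.46. The most abundant were the antigen presentation genes H2-D1 with 417 ± 59.2 CPM in WT and 343 ± 69.5 in cKO, H2-K1 with 346 ± 59.5 and 267 ± 45.7, and B2m with 321 ± 42.8 and 338 ± 73.3. Their log2 fold changes were -0.28, -0.37 and 0.07, so B2m did not share the sign of the H2 genes.

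Outside the 37 genes, the genes most like the interferon score over the 8 libraries (group means subtracted, description only) included Hcar2 (r = 0.98), Ctsd, Gimap3, Parp10, Cyb5r3, Traf1, Tecr, Gda and Ms4a6d (0.96). Of these, 1 (Parp10) is in the list of other interferon-induced genes. Ctsd, a lysosomal protease, had 1406, 1113, 1284 and 982 CPM in WT and 1166, 1146, 1284 and 1125 CPM in cKO. In both groups its highest values were in WT replicates 1 and 3 and cKO replicate 3, the libraries with the highest scores.

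Other properties of the libraries moved with the score. The 3 libraries with the highest score, WT replicates 1 and 3 and cKO replicate 3, were also the 3 deepest, with 32437214, 18423921 and 16243318 counts. They also had the least skeletal muscle RNA. The summed level of 14 muscle markers was 73.5, 2117, 450 and 8775 CPM in WT replicates 1 to 4 and 11231, 3285, 193 and 2480 CPM in cKO replicates 1 to 4. The summed level of 13 macrophage markers, all detected, was 146, 142, 155 and 102 CPM in WT and 161, 84.6, 159 and 113 CPM in cKO. The 3 lowest libraries were those with the 3 lowest scores, but the highest, cKO replicate 1, had a score of -0.11. T and NK cell markers summed to 3.25 to 9.49 CPM in WT and 2.10 to 6.41 CPM in cKO, with 2 of 12 passing the filter and WT replicate 1 highest. B cell markers summed to 12.7 to 17.3 and 6.89 to 20.3 CPM (3 of 7 passing), dendritic cell markers to 26.8 to 34.8 and 26.8 to 31.8 CPM (4 of 9), neutrophil markers to 2.04 to 2.43 and 1.41 to 4.00 CPM (2 of 7) and endothelial markers to 588 to 922 and 564 to 668 CPM (8 of 8), and no marker of these lists was at 0 in every library. Endothelial markers had negative log2 fold changes in 8 of 8, against 48.2% of all tested genes. Of these 8, 0 were called, against 0.0687%, and 1 (Tie1) was lower at an unadjusted edgeR p under 0.05, against 3.45%. The part of each of these cell types in the pattern was not tested.

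**Figure D5:**
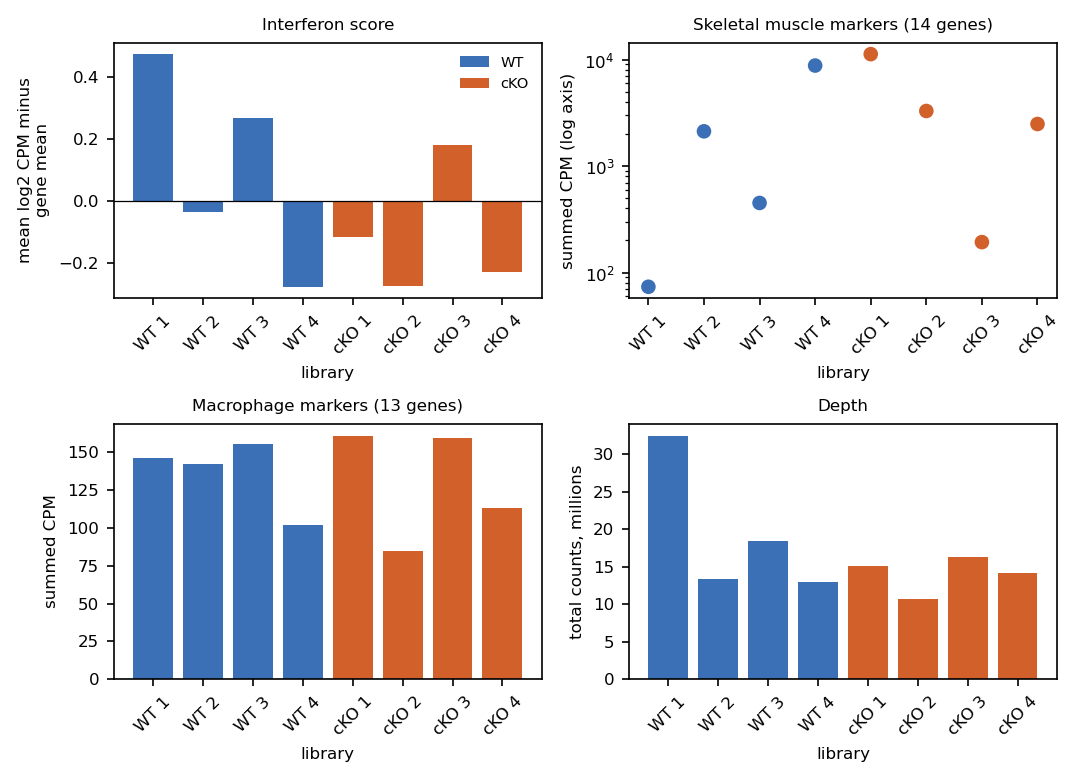
Interferon score, summed CPM of muscle markers (log axis), summed CPM of macrophage markers and total counts in each of the 8 libraries, WT in blue and cKO in orange. WT replicate 1, WT replicate 3 and cKO replicate 3 have scores of 0.47, 0.27 and 0.18, the lowest muscle sums and the greatest depths.

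When the muscle score was regressed out beside the group, the median pairwise r of the 36 genes went from 0.54 to 0.20, with log2 total counts to 0.29 and with the macrophage score to 0.41. The muscle markers had r of -0.93 (Myh2) to -0.78 (Tnnt1) with the interferon score, so a fall on removing the muscle score was built in. For these regressions no median over all gene pairs was computed, and the sizes of the falls do not rank causes. With log2 total counts in the edgeR fit the median log2 fold change was -0.018 with 22 of 36 negative, with the muscle score -0.11 with 29 negative, and with the macrophage score -0.18 with 30 negative. These 3 fits were chosen after seeing the data, and each called 0 of 36. Depth and muscle content are partly confounded, because the same 3 libraries are the deepest and the lowest in muscle RNA. The remaining libraries are not ordered alike. The most muscle RNA (11231 CPM) was in cKO replicate 1 at 15034847 counts, and the fewest counts (10713043) were in cKO replicate 2 at 3285 CPM. The parts of depth and muscle content in the pattern were not separated.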

How the data were processed

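Expression was measured by sequencing of polyadenylated RNA in 8 libraries, 4 WT and 4 cKO, grouped by title. The authors deposited 1 table of estimated counts, 1 row per Ensembl gene and 1 column per library, matched to libraries by the identifier in their labels. StringTie, Salmon, edgeR and the build GRCm38 are named in the submitters' processing notes. Neither the labels nor the notes state a strand setting, filter or annotation release. Symbols, positions and exon lengths came from GENCODE M21 (GRCm38), which named 54131 rows.

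Counts were rounded, filtered with filterByExpr (14553 genes left), scaled by TMM and tested over all genes by quasi-likelihood in edgeR 4.0.16 (robust fit, under R 4.3.3), with group as the only term and Benjamini-Hochberg adjustment. CPM are TMM-scaled and log2 CPM carry a prior count of 2. Errors after ± are SDs unless marked SE, and intervals are at 95%. Alternatives were DESeq2 1.42.0, limma-voom (limma 3.58.1), other scalings, filters, a replicate block, each library left out and WT replicate 4 moved. Shared sequence is the share of a gene's 31-base sequences present in transcripts of other genes. Precision is limited by 4 libraries per group and 10713043 to 32437214 counts per library.

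The members and lists were chosen with earlier results of these data known. The genes named with all values are, in each role group, the most abundant and the one with the largest absolute log2 fold change, the 5 with the widest range, and Ifit3 with Ifit3b. Mx1 is named because it failed the filter. Dhx58, Dtx3l and Ifi44 were added after their values were seen, because their fold changes are positive. No protein sequences were used here. Some genes that the naming rule picks in the wider lists are not reported here.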

Additional observations from a re-analysis of the deposited data

Results flagged for a closer look

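In 4 of the 74 sets of 4 libraries examined (36 genes and the score, in WT and in cKO), 1 library stood far from the other 3 by Dixon's test. Chance alone gives about 1 in 20. Usp18 in cKO had 3.36 CPM in replicate 3 against 2.98 to 3.04 CPM in the others, a small gap in a tight group. Rtp4 in cKO had 6.47 CPM in replicate 3 against 2.70 to 3.25 CPM. Oas1a in WT had 0.981 CPM in replicate 4 against 2.00 to 2.18 CPM. Ifi35 in WT had 12.4 CPM in replicate 2 against 15.3 to 15.8 CPM.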

How the results depend on the processing

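Over the 22 alternatives in which all genes were tested again, edgeR, DESeq2 and limma-voom called 0 of the 36 tested genes (35 with Ifit3 and Ifit3b summed, 37 without a filter), and the median log2 fold change stayed negative, from -0.35 to -0.02. Leaving out 1 library gave medians of -0.31 to -0.10, a difference in the interferon score of -0.34 to -0.10, a median pairwise r of 0.42 to 0.61 and an Adcy3 log2 fold change of -2.44 to -2.18 (edgeR adjusted p 7.78e-06 to 0.0122). The median pairwise r was 0.47 with the replicate block, 0.40 with WT replicate 4 moved to cKO, 0.20 with the muscle score, 0.41 with the macrophage score and 0.29 with log2 total counts removed. Adcy3 lost its call with the replicate block (-2.23, edgeR adjusted p = 0.225) and with WT replicate 4 moved (-1.26, 0.747). The labels number replicates 1 to 4 in both groups. With group means subtracted, same-numbered libraries correlated at r = -0.46, 0.03, 0.41 and 0.00160 over genes, and 1 of 8 libraries correlated best with its own number. Muscle RNA and depth also differ between libraries, so these values cannot settle whether the numbers pair libraries. With the block 0 of 36 genes were called, 6 had an unadjusted edgeR p under 0.05 with lower values in cKO (3.63% of all genes) and the median was -0.20. Over all genes edgeR called 10, against 46 with DESeq2, 93 without a filter, 15 with library quality weights and 1 with WT replicate 4 moved. Among the 36, 3 had an unadjusted edgeR p under 0.05, all lower in cKO, against 10 of 37 without a filter (3.15% of all genes), and 7 did in limma-voom with library quality weights (6.09%).

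Of 483 values of 22 named genes under alternatives, 22 changed sign, all uncalled. Leaving out 1 library moved the log2 fold change from -0.36 to 0.063 for Rsad2 (positive without WT replicate 1 or 3 or cKO replicate 1 or 2), -0.32 to 0.054 for Oas2 (positive without WT replicate 1), -0.21 to 0.00496 for Irf1 (positive without WT replicate 3 or cKO replicate 2), -0.021 to 0.28 for Ifit3b (negative without WT replicate 2), and -0.053 to 0.15 for Dhx58 and -0.088 to 0.42 for Ifi44 (both negative without WT replicate 4 or cKO replicate 3). With the muscle score Rsad2 turned to 0.10 and Oas2 to 0.00394, with the macrophage score Rsad2 turned to 0.00108, and with log2 total counts Rsad2, Oas2, Isg15 and Ifit3 turned to 0.17, 0.12, 0.23 and 0.11. With WT replicate 4 moved, Dhx58, Dtx3l and Ifi44 turned to -0.077, -0.00578 and -0.19. The cause was not tested.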
